A study of Mus musculus with 3 samples.

Results

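Blood clotting on a vessel wall is started, held back and undone by proteins that the cells of the wall display or secrete. Tissue factor, encoded by F3, starts the cascade when it binds factor VII. TFPI blocks that complex. Thrombomodulin (Thbd) and the endothelial protein C receptor (Procr) turn thrombin towards activating the anticoagulant protein C. The plasminogen activators tPA (Plat) and uPA (Plau) generate the plasmin that dissolves fibrin, and a receptor (Plaur) holds uPA on the cell. The protease-activated receptors PAR1 (F2r) and PAR2 (F2rl1) pass protease signals into the cell. These genes and Tfpi2, which encodes a related Kunitz-type inhibitor, were taken by name, 10 in all: every non-control probe whose gene name in the array files was one of them belonged to the set. That gave 19 of 41174 probes, for 10 of 19757 named genes.

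The study set cultured cells of mice without the serine/threonine kinase Pim1 against cells of wild-type mice. Knockout RNA came from Pim1-/- animals and wild-type RNA from unaltered animals, both of the FVB/N strain, described as female and 12 weeks old, and both were labelled as mouse aortic endothelial cells. RNA was collected 24 hours after seeding on gelatine-coated dishes in serum-containing medium. Each of 3 two-colour arrays of 60-base probes carried knockout RNA in Cy5 and wild-type RNA in Cy3, and per the labels these were biological replicates. The labels did not say how many animals or isolations stood behind a culture, whether the wild-type RNA was 1 pool, or which part of Pim1 was removed. Dyes were not swapped, so an effect of the dye and an effect of the genotype cannot be told apart. The p-values rest on the spread of these 3 arrays, with each probe's variance drawn towards that of all tested probes. They do not measure spread between animals, and so few arrays limit the precision.

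A level below is the log2 intensity of a probe after background correction and loess normalisation within the array. A log2 ratio is knockout over wild type on the same array. Both concern RNA, and the arrays did not measure protein or clotting activity. Levels of different probes are not comparable, because probes bind with different strength. The brightest tested probe stood for its gene, and the gene was called where the adjusted p was under 0.05 (limma, Benjamini-Hochberg over 25080 tested probes). Of 13463 genes tested, 2709 were called (20.1%), 1168 higher (8.68%) and 1541 lower (11.4%) in the knockout. A change of at least 2-fold was seen in 901 of the called genes (6.69% of those tested). Of all probes tested, 4300 were called (17.1%).

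Pim1 itself read −0.97, −1.16 and −0.99 on the 3 arrays (mean −1.04, adjusted p = 0.00297). Ratios of arrays 2 and 3 correlated at r = 0.905 across probes, and those of array 1 with the others at 0.681 and 0.699. Xist was not above background in the knockout channel and the Y-linked genes Kdm5d, Ddx3y and Eif2s3y stayed below it in the wild-type channel, although both were labelled female. Sex and genotype therefore cannot be told apart in any comparison below. Of 10 endothelial markers, only Eng was detected on every array with knockout RNA, while 3 were with wild-type RNA. Pecam1, Cdh5, Tie1 and Erg were detected in neither channel of any array, and Tek, Vwf and Emcn on too few arrays to be tested. Summed over the 3 tested endothelial markers, the intensity was 2879 to 3766 in knockout channels, against 759 to 798 in wild-type channels. Of these, Eng alone rose (log2 ratio 2.51), while Kdr (−0.23) and Esam (−0.17) did not pass. Such sums cover tested markers only and follow the brightest probes. Markers of other cell types were present and moved. Of 8 mesothelial and epithelial markers tested 7 fell, with a summed intensity of 6286 to 8057 in knockout channels, against 64635 to 94686 in wild-type channels. Of 7 fibroblast markers 5 rose and 1 fell, with sums of 205031 to 220962 in knockout channels and 162103 to 230893 in wild-type channels. Of 6 smooth muscle and pericyte markers 1 rose and 2 fell (sums of 51949 to 60371 in knockout channels and 51803 to 70642 in wild-type channels). Of 4 macrophage and leukocyte markers 2 fell (sums of 1976 to 2662 in knockout channels and 3541 to 4530 in wild-type channels). Of 6 platelet and megakaryocyte markers only Itga2b was above background, and it rose (log2 ratio 0.80, limma adjusted p = 0.0441), while Pf4, Ppbp, Gp9, Gp1ba and Treml1 were above it on no array. The part of these shifts in the results below was not tested. In such bulk RNA, fewer cells of a type and less RNA per cell cannot be told apart.

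The probes that carry the results are shown by the first 30 of their 60 bases, 5′ to 3′ on the sense strand, as the array files give them. The Tfpi probes are shown because they disagreed with each other, and the others because a call rests on each. The array files give the coordinates on mm8. An exon and UTR annotation of that build was not used here. The Tfpi probes follow in the direction of transcription.
Tfpi A_52_P631889, chr2:84274542-84274601, minus strand: tgaagacggtataattttgggacctcatct
Tfpi A_52_P592007, chr2:84254644-84254703, minus strand: gggatgtgaagggaacgagaaccgatttga
Tfpi A_51_P383210, chr2:84243800-84243859, minus strand: ttgtgggtagacctacctgatcattcttgg
Tfpi A_52_P670263, chr2:84241704-84241763, minus strand: tggtaaccctaactcactttaggtttatag
Tfpi A_52_P191353, chr2:84239540-84239599, minus strand: ctctcagtacttttacaattaataacatat
Thbd A_51_P291417, chr2:148095940-148095999, minus strand: tatttatttattggagtttcgctagaacac
Procr A_51_P382152, chr2:155446650-155446709, plus strand: ggcagacttactgtaggcattcaaaacatc
Plat A_51_P301566, chr8:24248165-24248225, plus strand: atccctccacactcctcaactcttgggaca
F2rl1 A_51_P455932, chr13:96612782-96612841, minus strand: catcatgtgaacttaagacattttcatgat

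The F3 probes A_52_P683413 (chr3:121726400-121726459, plus strand) and A_51_P236846 (chr3:121726440-121726499, plus strand) share 20 bases by their coordinates, at chr3:121726440-121726459. Their printed sequences are not the same there, with the differing bases in capitals.
A_52_P683413: ggacgaacGgaaacCgtaca
A_51_P236846: ggacgaacTgaaacGgtaca
Counted from the first shared base, A_51_P236846 differs from A_52_P683413 by G9T and C15G. The probes are thus not fully independent measurements of F3, and at most 1 of them matches a given F3 sequence at these bases.

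Of the 10 genes, 9 were tested and 6 of the 9 were called (66.7%, against 20.1% of all genes tested). By probe, 8 of the 16 tested were called. F3, Thbd and Plat rose, and Tfpi, Procr and F2rl1 fell. F2rl1 entered the test through its wild-type channel alone, so the filter favoured a fall. With both channels required above background on every array, 5 genes were called, 2 of them lower. Of the 5 called genes measured in both channels, Thbd was the one with a change above 2-fold. For F2rl1 only a bound that depends on the background can be given. Plau, Plaur and F2r did not pass, and Tfpi2 was not above background. RNA for the starter of the cascade was higher and RNA for its inhibitor lower at the representative probe. RNAs for the cofactor and the receptor of protein C activation moved apart. The median log2 ratio of the 9 genes was −0.52, beside −0.02 over all genes tested. Without array 1, 8 of the 9 passed, while calls over all genes rose from 2709 to 5602. With only 2 arrays left, limma leans on variances borrowed from all tested probes, so a small p-value there does not reflect replication. Without array 2 or without array 3 none passed by limma, although 6 had an unadjusted p under 0.05 in each case. Every one of the 9 kept the sign of its ratio. Over all genes, 660 were called without array 2 and 635 without array 3. The separate-channel fit called 7 of the 9, and 3828 of all genes.

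**Figure D1:**
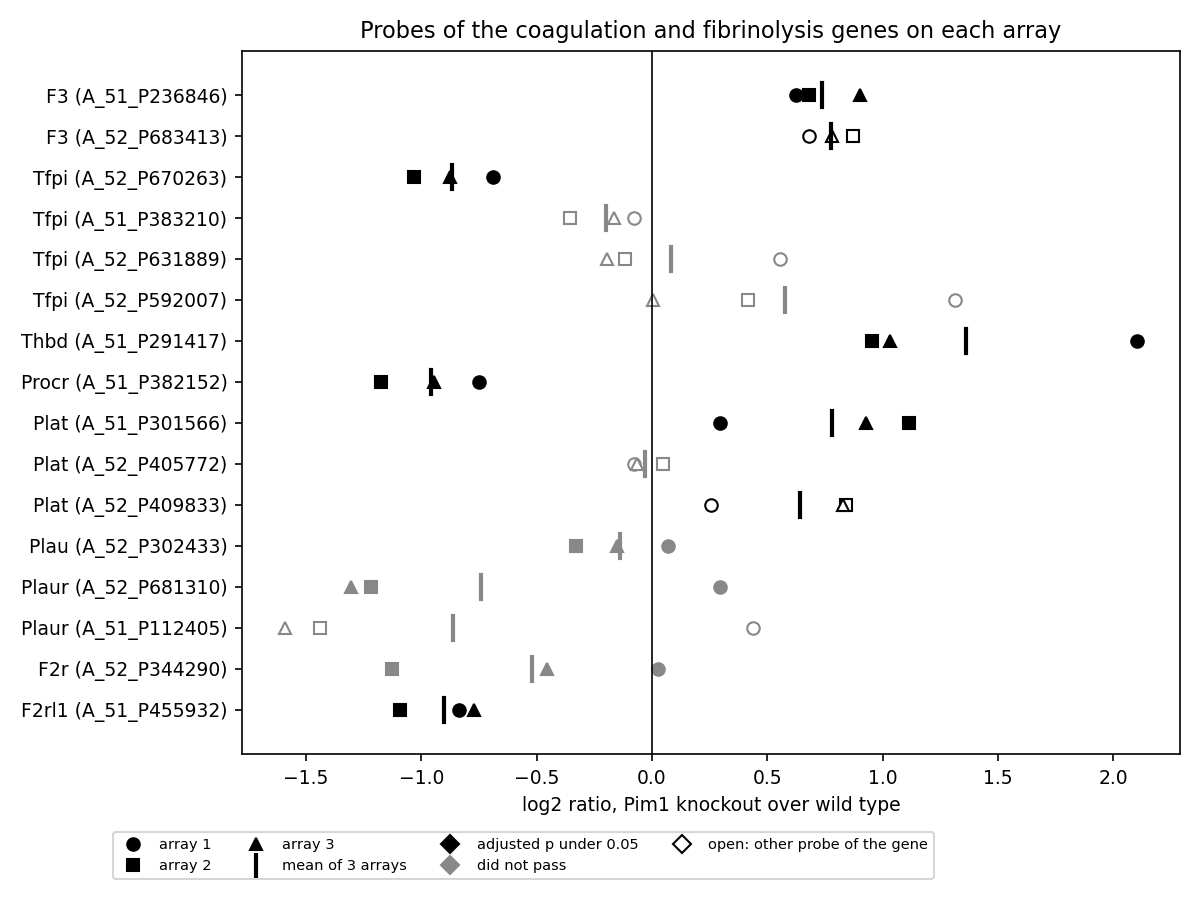
Log2 ratios of knockout over wild type (x axis) for the 16 tested probes (rows, gene and probe name), with a marker per array and a bar at the mean of 3 arrays. Filled markers are the brightest probe of a gene, open markers its other probes, and black ones passed an adjusted p under 0.05. F3 lies right of 0 and Procr and F2rl1 left of 0 on every array, whereas Plaur lies right of 0 on array 1 and left of it on arrays 2 and 3.

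Tissue factor RNA was higher in the knockout. At its brighter probe, the F3 level was 10.75, 9.94 and 9.63 in the knockout channel of arrays 1, 2 and 3, against 10.12, 9.26 and 8.73 in the wild-type channel. The knockout was above the wild type on each array, while the level itself fell off between arrays in both channels, so that the 2 sets of levels overlap. F3 rose 1.67-fold (log2 ratio 0.74 ± 0.15, SD, n = 3 arrays, 95% interval 0.48 to 0.99, limma adjusted p = 0.0102). The other probe gave 0.78 ± 0.10 (adjusted p = 0.00691). The ratios at both probes lay between 0.63 and 0.90 on every array. The call was lost without array 2 or array 3 (adjusted p = 0.0881 and 0.103; 2.28e-06 to 0.103 over all alternatives).

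TFPI, the inhibitor of the tissue factor and factor VII complex, was read by 5 probes that gave different answers along the gene. At the brightest one, A_52_P670263, designed from a cDNA clone with a complete coding sequence, the level was 9.90, 9.88 and 9.64 in the knockout channel, against 10.60, 10.92 and 10.51 in the wild-type channel, with no overlap. At this probe Tfpi was lower in the knockout by 1.82-fold (log2 ratio −0.87 ± 0.17, 95% interval −1.14 to −0.60, limma adjusted p = 0.00703). It stayed called with median centring and lost the call without array 2 or array 3 (0.0757 and 0.0797). The probe for the mRNA that the array files name TFPIbeta, A_51_P383210, read −0.08, −0.36 and −0.16 (mean −0.20, adjusted p = 0.253). It was dim, with levels of 6.57 to 6.69 in the knockout channel and 6.65 to 6.98 in the wild-type channel. Dim probes give smaller ratios after the background correction used here, and the scanner software's log2 ratio for this probe was −0.54. TFPI beta is the isoform held on the membrane by a lipid anchor.

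Of the 2 probes for the RefSeq mRNA, A_52_P592007 read 1.31, 0.42 and 0.004 (mean 0.58 ± 0.67, interval −0.05 to 1.21, adjusted p = 0.183). The other, A_52_P631889, read 0.55, −0.12 and −0.19 (mean 0.08 ± 0.41, adjusted p = 0.798). Neither passed, and array 1 was the highest of the 3 at both. The last probe, A_52_P191353, was not above background in either channel. The ratio at A_52_P592007 exceeded that at A_52_P670263 by 2.00, 1.45 and 0.88 on the 3 arrays (mean 1.44 ± 0.56), and the ratio at A_51_P383210 exceeded it by 0.61, 0.67 and 0.71 (mean 0.67 ± 0.05). Both channels of every array were above background at all 4 tested probes. An exact two-sided sign-flip test over 3 arrays cannot go below p = 0.25, which is what both differences gave. With the mean of all tested Tfpi probes in place of the brightest, the log2 ratio was −0.10 and the call was lost (adjusted p = 0.687; 7.70e-08 to 0.687 over all alternatives). The lower Tfpi signal thus passed at 1 of its probes.

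**Figure D2:**
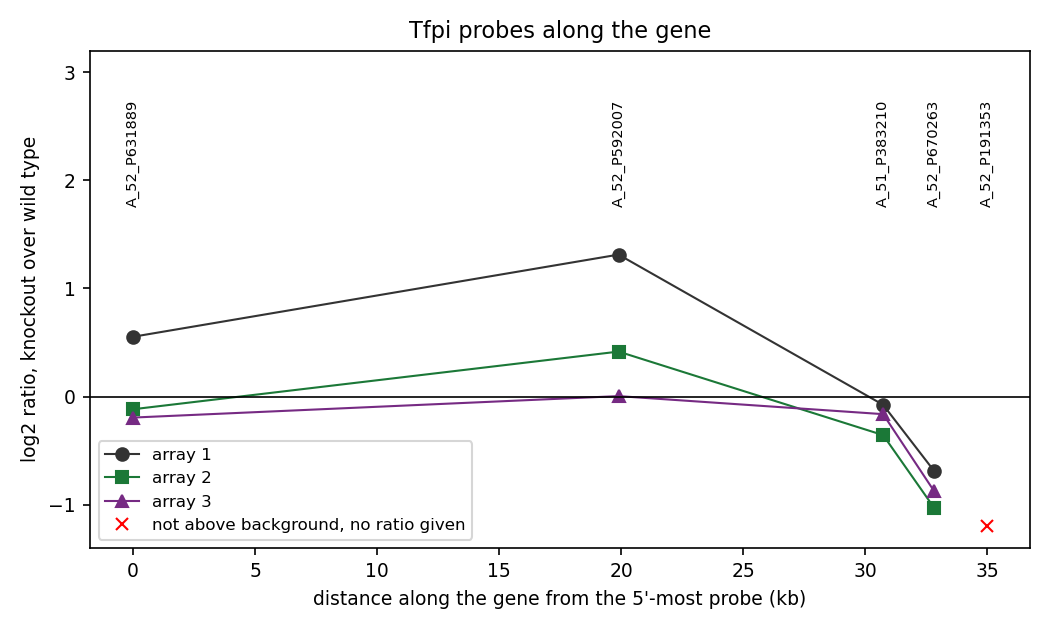
Log2 ratio of knockout over wild type (y axis) at the Tfpi probes, placed by their distance in kb from the probe nearest the 5′ end (x axis), with a line and marker per array. All arrays lie at or above 0 at A_52_P592007, 19.9 kb along, and below −0.6 at A_52_P670263, 32.8 kb along; the cross marks the probe that was not above background.

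Tfpi2, whose product inhibits plasmin and other proteases in the matrix, gave levels of 5.96, 6.08 and 6.22 in the knockout channel and 5.94, 6.04 and 6.41 in the wild-type channel. Its probe was not well above background in any channel on any array, so no ratio was tested.

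RNA for thrombomodulin, the receptor that makes thrombin an activator of protein C, was higher in the knockout. Its level was 11.30, 10.59 and 10.33 in the knockout channel, against 9.20, 9.64 and 9.29 in the wild-type channel. The lowest knockout level lay above the highest wild-type level, and array 1 stood apart by a higher knockout and a lower wild-type level. Thbd rose 2.57-fold (log2 ratio 1.36 ± 0.64, 95% interval 0.76 to 1.97, adjusted p = 0.0200). The ratio was 2.10 on array 1, against 0.95 and 1.03 on the others, and without array 1 it was 0.99 (adjusted p = 3.28e-08). Without array 2 or array 3 the call was lost (adjusted p = 0.0760 and 0.0911; 3.28e-08 to 0.0911 over all alternatives).

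RNA for the endothelial protein C receptor, which presents protein C to thrombin and thrombomodulin, moved the other way. The Procr level was 13.75, 14.11 and 13.91 in the knockout channel, against 14.51, 15.29 and 14.86 in the wild-type channel. The 2 sets do not overlap, and the ratios of −0.75, −1.18 and −0.94 were close to each other. Procr was lower in the knockout by 1.94-fold (log2 ratio −0.96 ± 0.21, 95% interval −1.25 to −0.66, adjusted p = 0.00667). It read −0.67 with median centring in place of loess, where the call was lost (adjusted p = 0.0664), as it was without array 2 or array 3 (0.0638 and 0.0736; 1.29e-08 to 0.0736 over all alternatives).

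**Figure D3:**
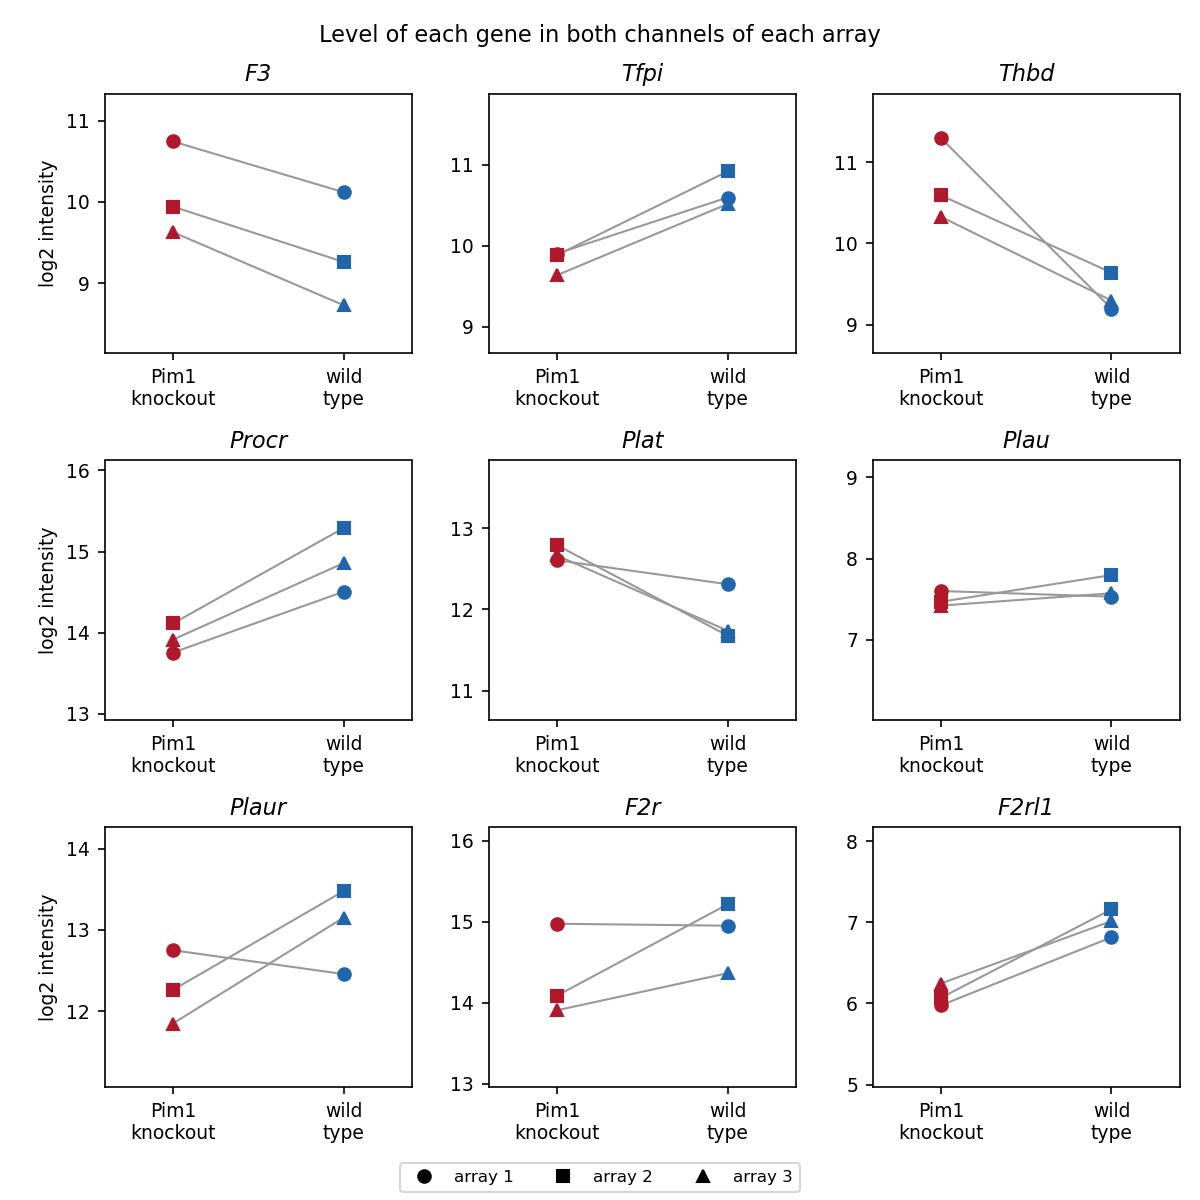
Log2 intensity (y axis) of the brightest probe of each of 9 genes in the knockout channel (red, left) and the wild-type channel (blue, right), with a marker per array and a grey line joining the channels of 1 array. Every panel spans the same height. The lines of Thbd, F3 and Plat run down to the right and those of Tfpi, Procr and F2rl1 up, while those of Plaur and F2r differ between arrays.

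Among the plasminogen activators, RNA for tPA was higher in the knockout and RNA for uPA did not pass. The Plat level at its brightest probe was 12.61, 12.79 and 12.66 in the knockout channel, against 12.31, 11.68 and 11.74 in the wild-type channel. The knockout levels differed little and lay above all wild-type levels, and the smaller ratio of array 1 came with a higher wild-type level there. Plat rose 1.72-fold (log2 ratio 0.78 ± 0.43, 95% interval 0.34 to 1.22, adjusted p = 0.0378).

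A second Plat probe, A_52_P409833, gave 0.64 ± 0.33 (adjusted p = 0.0399). Another, A_52_P405772, designed from a cDNA clone and lying upstream of both, read −0.08, 0.05 and −0.07 (mean −0.03, adjusted p = 0.855). In the knockout channel it exceeded background on 1 array only, at levels of 6.40 to 6.51. Plat was the least stable of the 6 calls and lost it under 7 of 20 alternatives. These were the scanner software's log ratio and the identical value table (adjusted p = 0.0544), no filter on dim probes (0.0723), the mean of its probes (0.0674), the threshold of 0.01, and leaving out array 2 or array 3 (0.205 and 0.211); the adjusted p ranged from 2.36e-08 to 0.211.

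The urokinase gene Plau had levels of 7.60, 7.47 and 7.42 in the knockout channel and 7.53, 7.80 and 7.57 in the wild-type channel, which overlap. Its log2 ratio was −0.14 ± 0.20 with a 95% interval of −0.42 to 0.15 (adjusted p = 0.475). The second Plau probe, whose 60 bases span 367 bases of the genome, was above background on 1 array per channel and was not tested.

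The urokinase receptor Plaur split by array. Its level was 12.75, 12.26 and 11.85 in the knockout channel, against 12.46, 13.48 and 13.15 in the wild-type channel. On array 1 the knockout was above the wild type, and on arrays 2 and 3 it was well below. The log2 ratios of 0.29, −1.22 and −1.30 gave a mean of −0.74 ± 0.90 (95% interval −1.56 to 0.08, adjusted p = 0.188). The other probe, at 0.44, −1.44 and −1.59, showed the same split, with array 1 above 0 and the others below (mean −0.86 ± 1.13, adjusted p = 0.213). With only arrays 2 and 3 in the fit, Plaur passed at −1.26 (adjusted p = 2.71e-10). It also passed with array weights (0.0102) and with the separate-channel fit (0.0447). The adjusted p ranged from 2.71e-10 to 0.577 over all alternatives.

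The protease-activated receptors are G protein-coupled receptors that thrombin (PAR1) or trypsin-like proteases and the factor VIIa and Xa complexes (PAR2) switch on by cutting their outer end. F2r, for PAR1, had levels of 14.97, 14.09 and 13.91 in the knockout channel and 14.95, 15.21 and 14.36 in the wild-type channel, which overlap. Its ratios of 0.02, −1.13 and −0.46 averaged −0.52 ± 0.58 (95% interval −1.07 to 0.03, adjusted p = 0.176). On array 1 the channels were nearly level, and F2r passed without it (−0.79, adjusted p = 1.37e-05) and with array weights (0.0308; 1.37e-05 to 0.698 over all alternatives).

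F2rl1, for PAR2, was above background in the knockout channel of no array and in the wild-type channel of all 3. Its level was 5.98, 6.07 and 6.24 in the knockout channel, against 6.81, 7.16 and 7.01 in the wild-type channel. Because the knockout side was not above background, its level was set no lower than the dimmest value above background. F2rl1 was then 1.85-fold lower in the knockout, a bound given without an error. It is not a minimum over the processing choices. The log2 ratio was −0.84 with median pixel intensities and −0.80 without array 2. That bound comes from channel values after Aquantile normalisation, with means of 6.09 in the knockout and 6.99 in the wild type, and is open to dye bias. The fit gave −0.90 ± 0.17 (95% interval −1.17 to −0.63, adjusted p = 0.00636). The ratio of a dim probe depends on the background correction: it was −2.03 with a normexp offset of 0 and −4.01 by the log ratio of the scanner software. Both kept the call, which was lost without array 2 or array 3 (0.0646 and 0.0583; 1.97e-07 to 0.0646 over all alternatives).

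The wider pathway was read through 49 genes in 5 lists. Of these, 30 were tested and 12 called (40.0%, against 20.1% of all genes tested), 6 higher and 6 lower, with a median log2 ratio of −0.06. Called genes of these lists were 17 without array 1, and 3 without array 2 or without array 3. Over all genes, 5602 were called without array 1, 660 without array 2 and 635 without array 3. Those calls that held under all 20 alternatives were the falls of Entpd1, Hs3st1 and Serpine2. A single list held 4 to 9 tested genes, too few to set its count against the 20.1% of all genes.

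The clotting factors themselves are mostly made in the liver. Of 17 such genes and of von Willebrand factor partners, 10 were above background on no array in either channel and 5 were tested. The probe for Kng1, the precursor of bradykinin and a contact-phase cofactor, read 0.32, 1.48 and 1.00 and rose 1.91-fold (adjusted p = 0.0443). It lost the call without array 2 or array 3 (0.195 and 0.214) and its scanner log ratio was larger, at 2.42. It belongs to a family of near-identical mouse kininogens, so the gene behind it is uncertain. Factors F5 (−0.41, adjusted p = 0.110), F8 (−0.21, 0.286), F9 (−0.01, 0.957) and F2 (0.19, 0.290) did not pass.

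Of 8 anticoagulant cofactors and vitamin K enzymes tested, 2 rose and 2 fell, with a median of −0.005. The largest change was at Entpd1, the ectonucleotidase CD39 that removes the platelet agonist ADP at the cell surface. Its level was 7.50, 7.34 and 6.92 in the knockout channel, against 10.72, 10.43 and 9.64 in the wild-type channel. Every array showed this wide a gap. Entpd1 was lower in the knockout by 8.06-fold (log2 ratio −3.01 ± 0.26, adjusted p = 0.000339), or −3.81 with the scanner software's log ratio.

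Hs3st1, the sulfotransferase that builds the antithrombin-binding site of heparan sulfate, had levels of 7.11, 7.42 and 7.34 in the knockout channel, against 8.45, 9.03 and 8.51 in the wild-type channel. It was 2.59-fold lower (−1.37 ± 0.22, adjusted p = 0.00228). Vkorc1 (0.45, adjusted p = 0.0454) and its paralog Vkorc1l1 (0.49, adjusted p = 0.0382), which recycle vitamin K, rose slightly, and each lost its call under 8 of 20 alternatives. The protein S gene Pros1 (−0.22, adjusted p = 0.484) had probes of opposite sign, and Gas6, a vitamin K-dependent ligand, read −1.56, 0.58 and 0.33.

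Of 9 genes for the handling of plasminogen at the cell surface, 3 rose and 2 fell, with a median of −0.006. The fallen pair forms 1 complex: annexin A2 (Anxa2) and its partner S100a10 bring tPA and plasminogen together on the cell surface. Anxa2 read −0.64, −0.51 and −0.64 (adjusted p = 0.0143) and S100a10 −0.85, −0.65 and −0.62 (adjusted p = 0.0106), so both were below the wild type on each array, by 1.51-fold and 1.63-fold. With median centring Anxa2 read −0.26 and S100a10 −0.38, and neither passed. Mrc2, the collagen receptor that associates with the urokinase receptor, rose 1.73-fold (0.79 ± 0.12, adjusted p = 0.00725). The enolase Eno1, a glycolytic enzyme that can bind plasminogen, rose 1.58-fold (adjusted p = 0.0178). Lrp1, which clears complexes of proteases with their inhibitors, rose 1.34-fold (adjusted p = 0.0448) and lost the call under 8 of 20 alternatives. These 5 calls were lost without array 2 or array 3 (adjusted p = 0.0734 to 0.264). The related receptor Vldlr read −2.46, −0.91 and −0.48 and did not pass (adjusted p = 0.0745).

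The remaining receptors F2rl2 and F2rl3 were too dim to be tested. Of 4 G protein subunits through which these receptors signal, Gnaq fell by 0.45 on the log2 scale (adjusted p = 0.0414) and lost the call under 8 of 20 alternatives, and Gna11 (−0.32, adjusted p = 0.0809), Gna12 (0.30, 0.118) and Gna13 (−0.05, 0.755) did not pass.

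Of the serpins that act on these proteases, 4 were tested and 1 passed. Serpine2, protease nexin 1, an inhibitor of thrombin and of the plasminogen activators, had levels of 7.21, 7.70 and 7.20 in the knockout channel, against 11.50, 11.91 and 11.23 in the wild-type channel. The gap was of like size on every array. Serpine2 was 18.1-fold lower in the knockout (−4.18 ± 0.13, adjusted p = 0.000139), and −4.84 with the scanner software's log ratio.

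**Figure D4:**
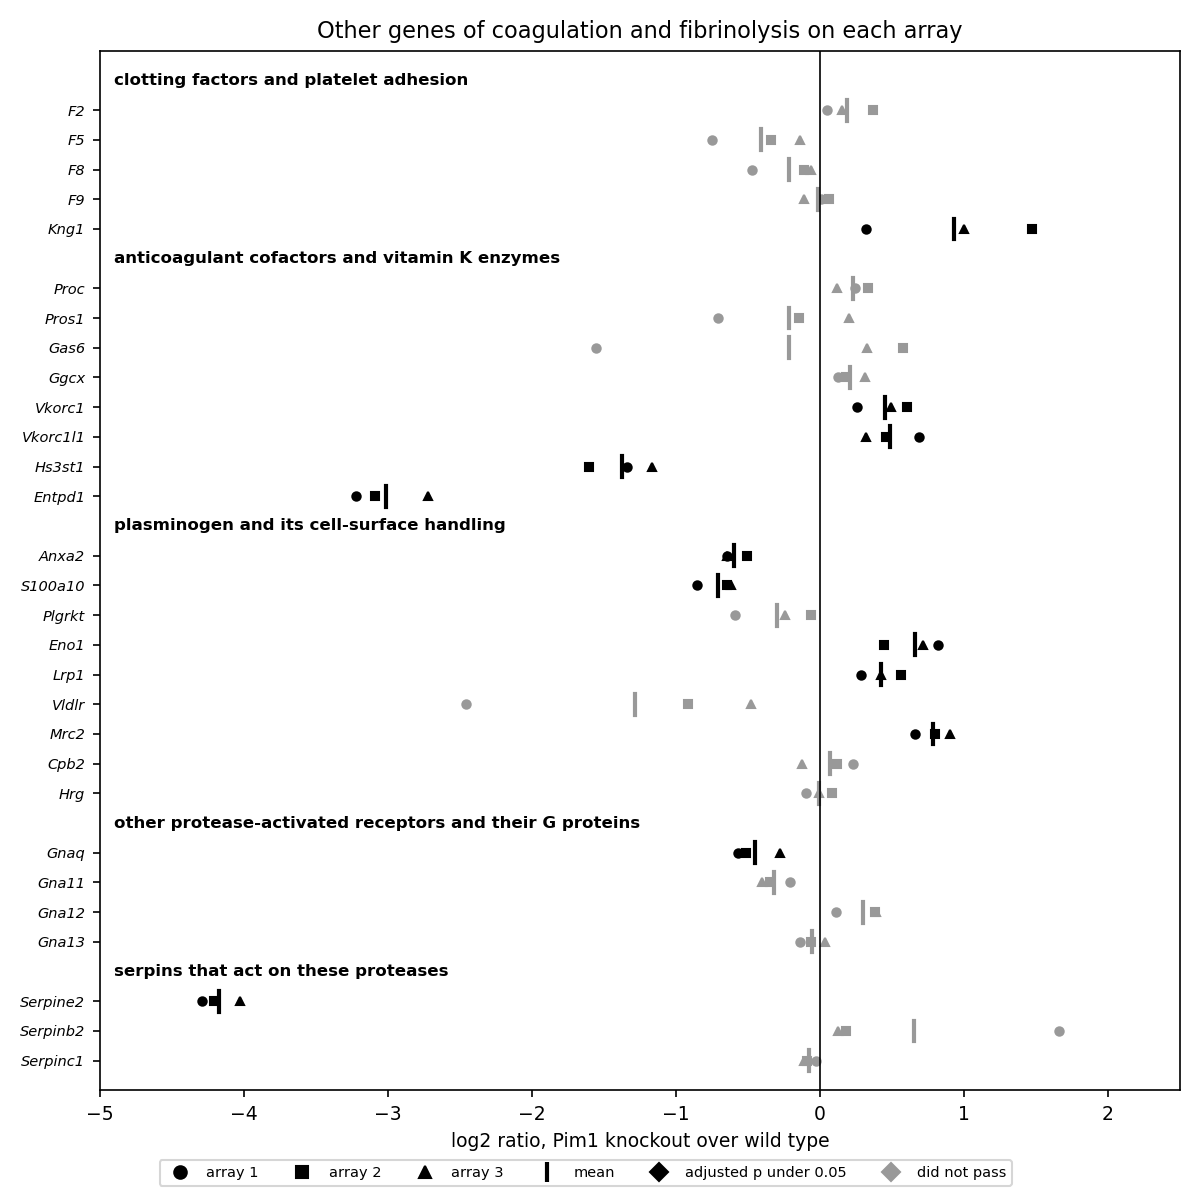
Log2 ratio of knockout over wild type (x axis) for tested genes of the 5 lists (rows), with a marker per array and a bar at the mean; black genes passed an adjusted p under 0.05. Entpd1 and Serpine2 lie left of −2.5 on every array, and Gas6 has arrays on both sides of 0.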

How the data were processed

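Total RNA of knockout and wild-type cultures was hybridised to 3 two-colour arrays. The authors deposited scanner output, which holds the pixel and local background intensity of each spot. Its headers and the submitters' processing notes name Agilent Feature Extraction 9.5.3.1. The same output holds, per the file headers, a log10 ratio of red over green. The authors' value table was identical to that ratio (largest difference 0 on each array, column medians 0). All arrays came from 1 slide and 1 scan.

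Mean pixel intensities were background-corrected with normexp (offset 50) and normalised by loess within each array, with control and outlier-flagged spots at weight 0. Flagged spots (121 to 140 per array) were left out, and spots of a probe averaged; none was saturated. Probes entered the test where 1 channel was well above background on at least 2 arrays. From the deposited intensities, log2 ratios were computed and their mean set against 0 by limma 3.58.1 (R 4.3.3). Probes were named through RefSeq tables of GRCm38 (8059 unnamed). The 253 antisense to the named gene could not represent it, but were not removed from the probe-level test. With the offset, dim probes give smaller ratios. The pipeline was tested on simulated intensities.

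The genes, lists and tests were chosen with earlier results of these data known. Named were the 10 genes and, per list, up to 4 called genes by size of change; genes named beyond that were chosen after their values were seen. The result of 1 listed gene is not reported here. Alternatives were no or other background correction, median pixels, the software's ratio, the value table, centring on the median, Aquantile or scaling between arrays, other filters, flagged spots kept, other variance models, array weights, a separate-channel fit (statmod 1.5.0), an adjusted p under 0.01, averaging all probes of a gene, and dropping each array in turn.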

Additional observations from a re-analysis of the deposited data

How the results depend on the processing

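The 9 ratios were recomputed under 20 alternatives, of which 1 (no probes on chromosomes X and Y) was added after seeing the data; F2rl1 could not be computed when both channels had to be above background on every array. None of the 179 ratios changed sign, 153 kept their side of the threshold, 21 lost the call and 5 gained it. The sign could not change under every alternative. Aquantile normalisation, the dim-probe filters, the separate-channel fit, an intensity trend in the variances and the threshold of 0.01 left the ratio as it was. The value table repeated the software's ratio. The number of called genes, 2709, was 4417 with array weights and 960 at an adjusted p under 0.01, and 635 to 5602 when an array was left out. The 6 called of the 10 genes were 3 at an adjusted p under 0.01, all lower; by limma 0 higher ones passed there, although 3 had an unadjusted p under 0.05. Leaving out an array gave 0 to 8 called genes, 0 to 3 higher and 0 to 5 lower, with 6 at an unadjusted p under 0.05 where the count was 0. Array weights gave 5 lower ones. Of the 49 further genes, 12 were called, 4 at an adjusted p under 0.01 and 3 to 17 when an array was left out. Dropping an array leaves fewer samples, yet calls rose without array 1 and fell without array 2 or array 3. The array weights were 0.41, 1.39 and 1.76 for arrays 1, 2 and 3. The stricter threshold calls fewer genes by construction. The cause of that rise and of the other shifts was not tested. No paired analysis was possible because each array already holds knockout and wild type and the ratio is the paired value. A block for slide or scan could not be fitted, since there was 1 of each. Signal over background limits F2rl1 in the knockout channel, Tfpi2 in both channels, and the untested probes of Tfpi and Plau. Low expression and absence cannot be told apart there.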
